A study of Mus musculus with 12 samples.

Results

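The enzymes that break down the branched-chain amino acids leucine, isoleucine and valine were followed by 10 genes, Bckdha, Bckdhb, Dbt, Ivd, Acadsb, Mccc1, Mccc2, Hibch, Pcca and Pccb, chosen by name for their place in the pathway from the 23183 genes measured. RNA sequencing covered kidney cortex of male C57BL/6N mice (the sample labels give C57BL/6), operated at 6 to 7 weeks of age and sampled on day 7 after unilateral ureteral obstruction (UUO), in which ligation of a ureter causes tubular injury and fibrosis. The groups were Acot12+/+ CL, Acot12+/+ UUO, Acot12-/- CL and Acot12-/- UUO, with 3 libraries each and 12 in all. CL is the unligated contralateral kidney of the operated animals, so that all 4 groups carry the surgery and no group is an unoperated kidney. Acot12-/- mice carry a global mutant allele made with an RNA-guided endonuclease, so that the mutation is not limited to a cell type. Values are FPKM, fragments scaled by transcript length and library depth, and differences are given on the log2(FPKM + 1) scale, which understates the change of low genes.

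Breakdown of the branched-chain amino acids takes place in mitochondria. After a reversible transamination, the branched-chain keto acid dehydrogenase complex commits the carbon skeletons to oxidation, with Bckdha and Bckdhb encoding the alpha and beta chains of its decarboxylase and Dbt its transacylase core. The acyl-CoA products are then dehydrogenated by isovaleryl-CoA dehydrogenase (Ivd) on the leucine branch and by short/branched-chain acyl-CoA dehydrogenase (Acadsb) on the isoleucine branch. Mccc1 and Mccc2 encode the subunits of the leucine enzyme methylcrotonyl-CoA carboxylase, Hibch is the hydrolase of the valine branch, and Pcca and Pccb form propionyl-CoA carboxylase, which receives carbon from isoleucine and valine. In the kidney these enzymes are known chiefly from the mitochondria-rich tubule.

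All 10 genes were expressed well above the filter of at least 1 FPKM in at least 3 libraries and entered the fit over 13243 genes. The targeted gene, Acot12, was at 73.8, 52.7 and 78.1 FPKM in Acot12+/+ CL and at 9.14, 9.01 and 6.8 FPKM in Acot12-/- CL. Its difference between genotypes was -2.88 ± 0.28 (SE, limma adjusted p = 0.000969, n = 3 per group) in CL and -2.07 ± 0.28 (adjusted p = 0.0459) in UUO kidneys, so that transcript remained detectable in the mutants. The UUO call was lost with the replicate block (adjusted p = 0.0657) and without any 1 library other than Acot12+/+ UUO replicate 1, although the difference stayed between -2.35 and -1.84. It was also lost with a pseudocount of 0.1 (adjusted p = 0.0858), without the filter (0.103) and with median-ratio size factors (0.0519). Keeping genes listed at 0 beside at least 10 FPKM (0.0536) or fitting only the UUO groups (0.355) lost it too. The CL call was kept in all of these fits or their CL counterparts. The depth recovered from the low values was about 12500000 to 16400000 fragments in CL and 18400000 to 22700000 in UUO libraries, where 1 fragment on 1 kb of transcript equals 0.0441 to 0.0803 FPKM. Across all libraries, UUO and CL separated along the first principal component (74.2% of variance). Acot12-/- CL replicate 2 stood apart from the other libraries of its group on the second (-52.3 against 22.2 and 33), and results that rest on it are given with and without it. Nothing in the labels says that replicates are separate animals, and p-values then measure only the spread between these samples.

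In UUO kidneys the genes fell nearly as a set. In Acot12+/+ kidneys all 10 genes were called lower in UUO than in CL (limma, Benjamini-Hochberg adjusted p under 0.05 over all genes tested), against 23.9% of all tested genes called lower and 23.6% called higher. In Acot12-/- kidneys 9 of 10 were called lower, against 27.2% of tested genes lower and 26.6% higher, and over both genotypes all 10 were, against 32.1% lower and 31.3% higher. For Acot12+/+ the median difference over these genes came to -1.68 and for Acot12-/- to -1.69, beside medians of 0.0051 and -0.0108 over all tested genes. Every UUO library was below every CL library for 10 of 10 genes in Acot12+/+ (35.8% of tested genes) and for 9 of 10 in Acot12-/- (27.6%), the exception being Bckdha. In bulk tissue, fewer cells of a type and less RNA per cell cannot be told apart.

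**Figure D1:**
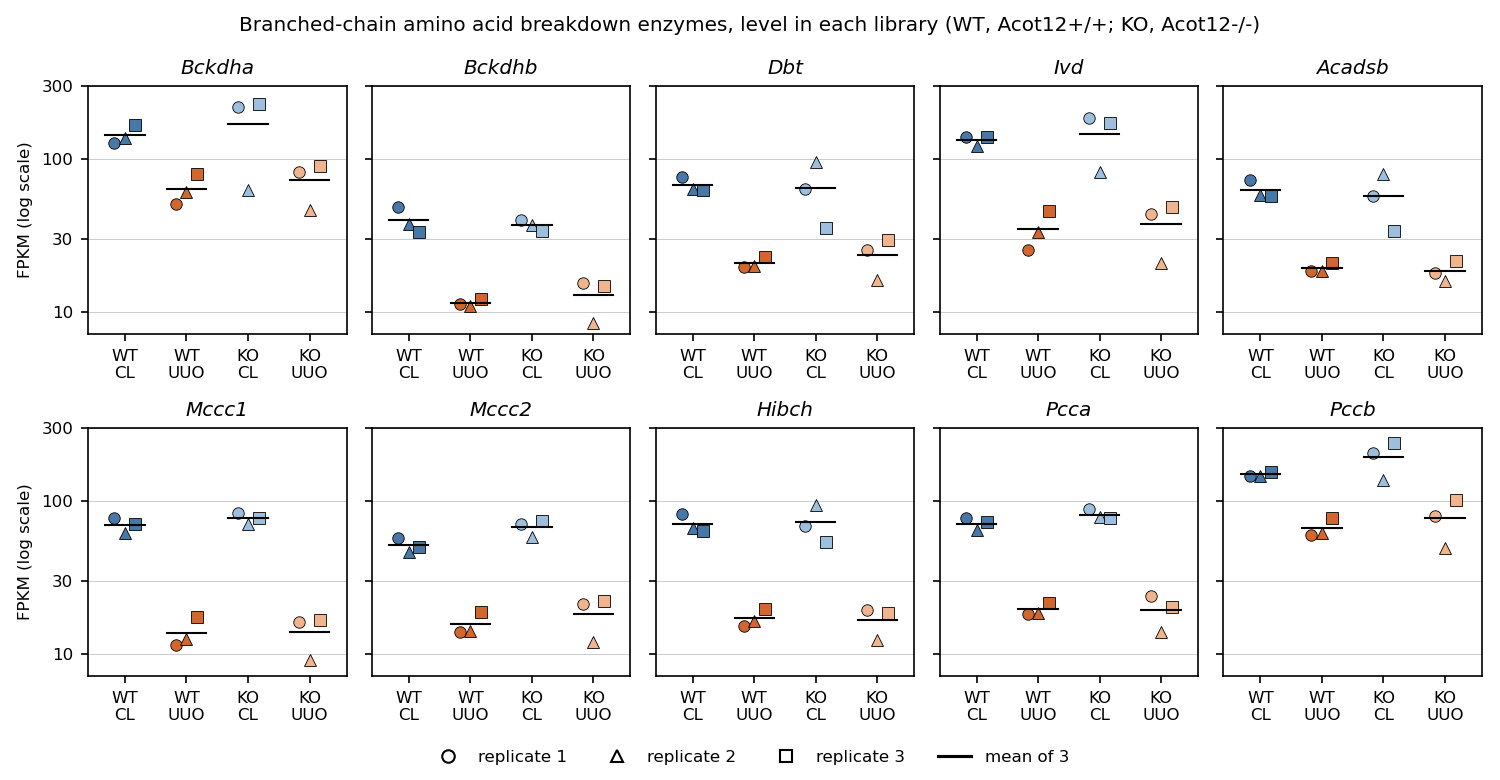
Level of each of the 10 enzyme genes in FPKM (log axis) in every library, with lines at the mean of 3 replicates, for contralateral (CL) and obstructed (UUO) kidneys of Acot12+/+ (WT) and Acot12-/- (KO) mice. The UUO points lie below the CL points of the same genotype in every panel except Bckdha in Acot12-/- mice, where CL replicate 2 was at 62.8 FPKM.

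The beta chain and the core of the keto acid dehydrogenase fell in both genotypes. Bckdhb, the beta chain, was at 48.8, 37.3 and 33.4 FPKM in Acot12+/+ CL and at 11.2, 10.9 and 12.2 FPKM in Acot12+/+ UUO. In Acot12-/- kidneys it was at 39.8, 36.9 and 33.7 FPKM in CL and at 15.5, 8.46 and 14.8 FPKM in UUO. The groups did not overlap in either genotype, and the differences were -1.70 ± 0.21 (adjusted p = 6.92e-05) and -1.48 ± 0.21 (adjusted p = 0.000105). Dbt, the transacylase core, was at 76.5, 64.0 and 62.2 FPKM in Acot12+/+ CL and at 19.6, 20.0 and 22.9 FPKM in UUO, a difference of -1.65 ± 0.30 (adjusted p = 0.000929). In Acot12-/- CL it was scattered, at 63.8, 95.5 and 35.4 FPKM, and its UUO values of 25.2, 16.2 and 29.3 FPKM still lay below all of them (-1.35 ± 0.30, adjusted p = 0.00257).

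Bckdha, the alpha chain, gave the least firm of the 10 results. In Acot12+/+ mice it was at 128, 137 and 167 FPKM in CL and at 51.1, 60.6 and 80.3 FPKM in UUO, so that UUO held 44.4% of the CL mean. The groups did not overlap, and the difference of -1.17 ± 0.42 was called (adjusted p = 0.0383). The call was lost without any of Acot12+/+ CL replicates 1, 2 and 3 or UUO replicates 1 and 2 (adjusted p of 0.0673, 0.0727, 0.11, 0.12 and 0.0909, respectively). The Acot12-/- levels of Bckdha were 218, 62.8 and 230 FPKM in CL and 81.7, 46.4 and 89.5 FPKM in UUO. CL replicate 2 lay within the UUO range, and the difference of -1.06 ± 0.42 missed the threshold (adjusted p = 0.0517). With the replicate number as a block, which pairs CL and UUO libraries of the same number, the same difference was called (adjusted p = 0.00237), and without CL replicate 2 it was -1.67 (adjusted p = 0.000339). Bckdha overlaps B3gnt8 on the opposite strand in the annotation, and whether counting used strand is not given in the sources used here.

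Both acyl-CoA dehydrogenases fell. Ivd, the leucine-branch enzyme, was at 140, 122 and 139 FPKM in Acot12+/+ CL and at 25.5, 33.4 and 45.6 FPKM in UUO (-1.95 ± 0.35, adjusted p = 0.000833). The mutants had 185, 81.7 and 171 FPKM in CL and 43.5, 21.0 and 48.6 FPKM in UUO (-1.92 ± 0.35, adjusted p = 0.000656). UUO thus held 26.0% and 25.8% of the CL means, nearly the same share in both genotypes. Acadsb, the isoleucine-branch enzyme, was at 72.6, 58.0 and 57.1 FPKM in Acot12+/+ CL and at 18.5, 18.6 and 20.9 FPKM in UUO (-1.64 ± 0.25, adjusted p = 0.000286). Its Acot12-/- levels were 57.0, 79.9 and 33.7 FPKM in CL and 17.9, 15.8 and 21.4 FPKM in UUO (-1.51 ± 0.25, adjusted p = 0.000357). The UUO libraries were closely spaced for Acadsb (15.8 to 21.4 FPKM) and less so for Ivd (21.0 to 48.6 FPKM). CL replicate 2 of the mutants was the highest Acadsb value of the series and the lowest CL value of Ivd.

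Mccc1 had the largest fall of the 10 genes in both genotypes. This biotin-carrying subunit of methylcrotonyl-CoA carboxylase was at 77.5, 62.1 and 70.4 FPKM in Acot12+/+ CL and at 11.5, 12.5 and 17.3 FPKM in UUO. In Acot12-/- mice it was at 83.3, 70.9 and 77.1 FPKM in CL and at 16.2, 9.15 and 16.6 FPKM in UUO. The lowest CL library was at 62.1 FPKM and the highest UUO library at 17.3 FPKM, and UUO held 19.7% and 18.1% of the CL means, with differences of -2.28 ± 0.22 (adjusted p = 1.65e-05) and -2.42 ± 0.22 (adjusted p = 5.02e-06). Mccc2, the carboxyltransferase subunit, was at 57.1, 46.6 and 50.2 FPKM in Acot12+/+ CL and at 13.8, 14.2 and 18.7 FPKM in UUO (-1.67 ± 0.22, adjusted p = 9.93e-05). In the mutants it was at 70.7, 58.5 and 73.4 FPKM in CL and at 21.1, 11.9 and 22.0 FPKM in UUO (-1.87 ± 0.22, adjusted p = 2.78e-05). Mccc1 overlaps the antisense genes Mccc1os and Gm15952 in the annotation. Besides Bckdha, Acadsb (with Fgfr2) and Pcca (with Ggact) overlap a protein-coding gene on the opposite strand, and no other of the 10 genes does.

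Hibch, the 3-hydroxyisobutyryl-CoA hydrolase of valine breakdown, was at 81.7, 66.8 and 64.0 FPKM in Acot12+/+ CL and at 15.1, 16.3 and 19.7 FPKM in UUO (-1.99 ± 0.22, adjusted p = 3.83e-05). In Acot12-/- mice it was at 68.4, 94.4 and 54.2 FPKM in CL and at 19.4, 12.4 and 18.4 FPKM in UUO (-2.04 ± 0.22, adjusted p = 1.76e-05). UUO held 24.0% and 23.1% of the CL means.

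The propionyl-CoA carboxylase subunits differed in how far they fell. Pcca, the biotin-carrying subunit, was at 76.9, 64.3 and 72.4 FPKM in Acot12+/+ CL and at 18.3, 18.6 and 21.6 FPKM in UUO (-1.82 ± 0.18, adjusted p = 2.15e-05). In Acot12-/- mice it was at 88.1, 78.7 and 77.8 FPKM in CL and at 23.8, 13.8 and 20.1 FPKM in UUO (-2.06 ± 0.18, adjusted p = 4.39e-06). UUO held 27.4% and 23.6% of the CL means of Pcca. Pccb, the carboxyltransferase subunit, was at 146, 146 and 155 FPKM in Acot12+/+ CL and at 60.0, 61.3 and 77.9 FPKM in UUO (-1.16 ± 0.26, adjusted p = 0.00323). In the mutants it was at 205, 137 and 238 FPKM in CL and at 79.6, 49.6 and 102 FPKM in UUO (-1.34 ± 0.26, adjusted p = 0.000993). UUO held 44.6% and 39.9% of the CL means of Pccb, the largest shares of the 10 genes after Bckdha in Acot12-/- mice and the largest of all in Acot12+/+ mice.

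**Figure D2:**
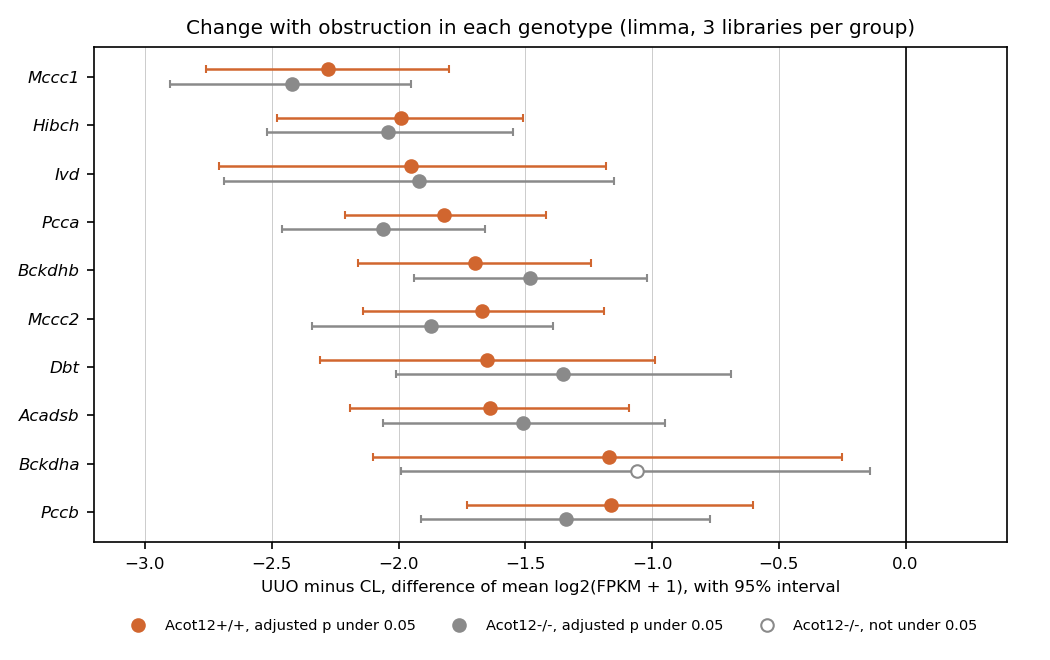
Difference in mean log2(FPKM + 1) between UUO and CL kidneys for the 10 genes in each genotype, with 95% intervals from limma (3 libraries per group); filled points have an adjusted p under 0.05. Mccc1 lies farthest from 0 (-2.28 and -2.42), and Bckdha in Acot12-/- mice is the open point (-1.06).

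The 10 genes also differed in level. Levels are compared between genes on the FPKM scale, which divides by transcript length, but the unit and its lengths were inferred from the values, and another choice of transcript lengths would change the order. In Acot12+/+ CL kidneys Pccb (149 ± 5.58 FPKM, SD, n = 3), Bckdha (144 ± 20.3 FPKM) and Ivd (134 ± 10.3 FPKM) formed an upper group whose libraries overlapped, and every one of these libraries was above those of the next gene, Pcca (71.2 FPKM). Pcca, Hibch, Mccc1, Dbt and Acadsb followed at mean levels of 71.2 to 62.6 FPKM with each overlapping its neighbour, and Mccc2 (51.3 FPKM) and Bckdhb (39.8 FPKM) were lowest. In Acot12+/+ UUO kidneys Pccb (66.4 FPKM) and Bckdha (64.0 FPKM) were separated from Ivd (34.8 FPKM), and Ivd from the remaining genes at 20.8 to 11.4 FPKM. Mccc1 moved from the sixth place among the CL means to the ninth among the UUO means. In Acot12-/- kidneys every gene overlapped its neighbour in the order, in both CL and UUO.

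Ratios within a library are not touched by a common scaling of its values, and 6 of them were tested with an exact two-sided permutation test that exchanged UUO and CL labels within each genotype (400 labellings, smallest possible p = 0.005, Benjamini-Hochberg over the 6). The ratio of Mccc1 to Mccc2 was 1.36, 1.33 and 1.40 in Acot12+/+ CL and 0.834, 0.883 and 0.928 in UUO. In Acot12-/- mice it was 1.18, 1.21 and 1.05 in CL and 0.765, 0.772 and 0.754 in UUO. The groups did not overlap, and the mean difference of the log2 ratio was -0.61 (exact p = 0.005, the smallest possible, adjusted p = 0.015), with the same direction in 6 of 6 pairs of the same replicate number. The ratio of Pcca to Pccb was 0.528, 0.441 and 0.465 in Acot12+/+ CL and 0.305, 0.303 and 0.278 in UUO, and 0.429, 0.573 and 0.327 in Acot12-/- CL and 0.299, 0.278 and 0.197 in UUO. It was lower in UUO by the same measure (-0.73, exact p = 0.005, adjusted p = 0.015, 6 of 6 pairs). In both carboxylases the transcript of the biotin-carrying subunit was thus lower relative to that of its carboxyltransferase partner in UUO. With the replicate number as a block, by exact sign flips over the 6 pairs, both ratios reached the smallest possible p of 0.0312, which became 0.0938 after adjustment over the 6 ratios and was not called.

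**Figure D3:**
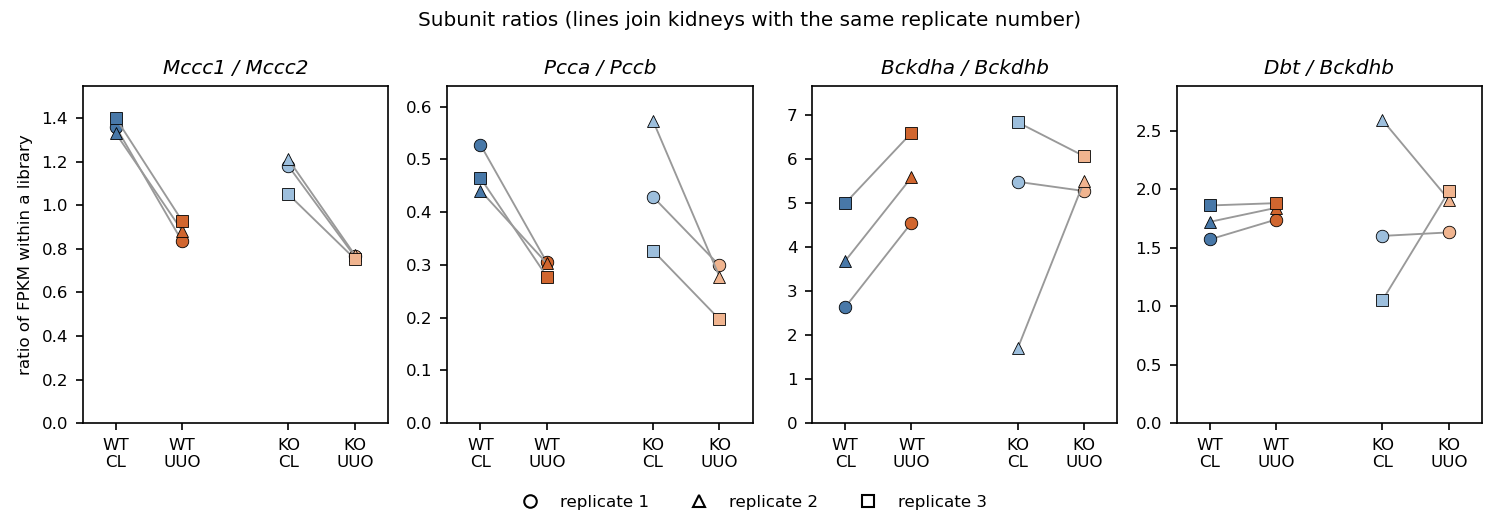
Ratio of FPKM between subunits within each library, with lines joining CL and UUO kidneys of the same replicate number in Acot12+/+ (WT) and Acot12-/- (KO) mice. All 6 lines run downward for Mccc1/Mccc2 and Pcca/Pccb. Of the 6 lines, 4 run upward for Bckdha/Bckdhb and 5 for Dbt/Bckdhb, some of them nearly flat.

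The keto acid dehydrogenase subunits showed no called shift against each other. The log2 ratio of Bckdha to Bckdhb was higher in UUO by 0.54 (exact p = 0.13, adjusted p = 0.26, 4 of 6 pairs) and that of Dbt to Bckdhb by 0.13 (exact p = 0.565, adjusted p = 0.60, 5 of 6 pairs). The ratio of Ivd to Acadsb differed by -0.34 (exact p = 0.365, adjusted p = 0.547, 5 of 6 pairs). The ratio of Bckdk, the kinase that inactivates the complex, to Ppm1k, its phosphatase, differed by 0.31 (exact p = 0.60, adjusted p = 0.60, 4 of 6 pairs). Acot12-/- CL replicate 2 weighed on each of these: without it Bckdha to Bckdhb was 0.23 (adjusted p = 0.354), Dbt to Bckdhb 0.29 and Ivd to Acadsb -0.67, both with an adjusted p of 0.0375, and Bckdk to Ppm1k turned to -0.09. Without Acot12-/- CL replicate 3 instead, Dbt to Bckdhb turned to -0.03 (adjusted p = 0.9). The sign of that ratio's difference thus depended on which library was left out.

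None of the 10 genes had a called difference between genotypes. None was called between genotypes in UUO kidneys (0.0151% of tested genes called), none in CL kidneys (4.48% called), and none for the interaction of genotype and UUO (0.106% called). At an unadjusted p under 0.05 the limma counts were also 0 in each of the 3 comparisons. In UUO the differences ran from -0.08 for Acadsb (95% interval -0.63 to 0.48) to 0.19 for Mccc2 (-0.29 to 0.66). In CL they ran from -0.21 for Acadsb (-0.76 to 0.34) to 0.39 for Mccc2 (-0.09 to 0.86, adjusted p = 0.415). The intervals were narrowest for Pcca, at -0.45 to 0.35 in UUO and -0.20 to 0.59 in CL, and widest for Bckdha, at -0.78 to 1.07 in UUO and -0.89 to 0.96 in CL. The interaction ran from -0.24 for Pcca (-0.80 to 0.32) to 0.30 for Dbt (-0.64 to 1.23).

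The ratio of Mccc1 to Mccc2 separated the genotypes as well, an observation made after its values were seen and therefore given without a test. The 3 Acot12-/- CL libraries (1.05 to 1.21) lay below the 3 Acot12+/+ CL libraries (1.33 to 1.40), and the 3 Acot12-/- UUO libraries (0.754 to 0.772) below the 3 Acot12+/+ UUO libraries (0.834 to 0.928).

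In the mutants, replicate 2 departed from the other replicates in both kidneys, in different ways. In CL, the difference of replicate 2 from the mean of replicates 1 and 3 followed the GC content of the transcript. Its median over 5 equal bins of the 12375 tested genes with an annotated GC content ran from 0.65 in the bin with the lowest GC content to -0.89 in the bin with the highest, and Spearman's rho was -0.79 over these genes and -0.92 over the 10 enzymes, which share this library. Dbt (42.1% GC, 0.99), Acadsb (42.7%, 0.85) and Hibch (41.9%, 0.62) were higher there, and Bckdha (57.9%, -1.82), Ivd (51.1%, -1.11) and Pccb (51.3%, -0.68) were lower. Without this library the Bckdha difference between genotypes in CL was 0.64 (adjusted p = 0.108) in place of 0.04. In UUO, all 10 enzymes had the lowest of the 6 UUO values in Acot12-/- replicate 2, where 23.3% of tested genes did. The departures from replicates 1 and 3 ran from -0.29 for Acadsb to -1.10 for Ivd. Over all genes these departures were unrelated to GC content (rho = -0.02), although they were ordered by it over the 10 enzymes (rho = -0.89).

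**Figure D4:**
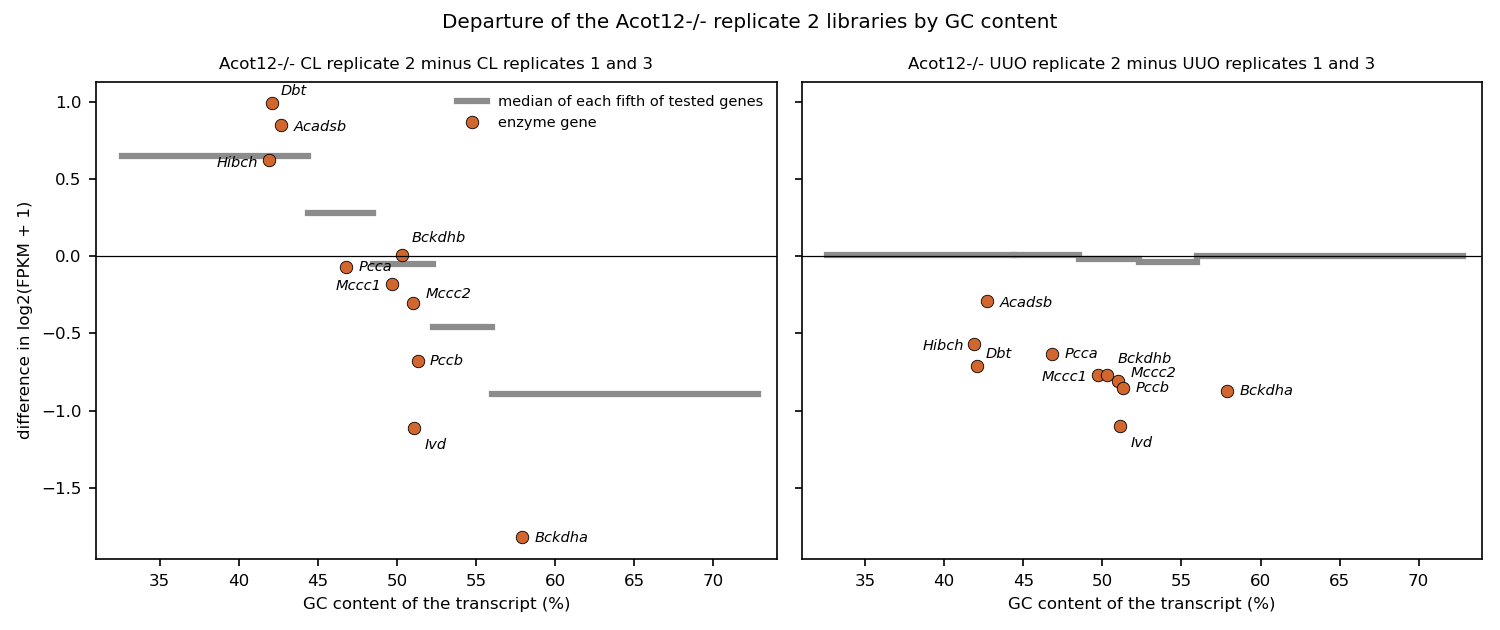
Difference in log2(FPKM + 1) of Acot12-/- replicate 2 from the mean of replicates 1 and 3 against the GC content of the transcript, in CL (left) and UUO kidneys (right), for the 10 enzymes (points) and as the median of each of 5 equal bins of the tested genes (bars). The bars descend from 0.65 to -0.89 in CL and stay between -0.04 and 0.01 in UUO, where all 10 points are below 0.

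The other genes of the pathway, a list of 25, were mostly called lower as well. In Acot12+/+ kidneys 16 were called lower in UUO and 2 higher, with a median of -0.94, and in Acot12-/- kidneys 20 lower and 2 higher, with a median of -1.16. Of all tested genes, 23.9% and 27.2% were called lower and 23.6% and 26.6% higher. All 7 genes of the later isoleucine and valine steps were lower in both genotypes, among them the thiolase Acat1 (-2.87 ± 0.33 and -2.71 ± 0.33) and the methylmalonate semialdehyde dehydrogenase Aldh6a1 (-2.65 ± 0.35 and -2.89 ± 0.35). The leucine enzyme Auh was lower in both genotypes, and so was the methylmalonyl-CoA mutase, listed as Mut (-2.08 ± 0.25 and -2.44 ± 0.25). Dld, the dehydrogenase component that the complex shares with other keto acid dehydrogenases, was lower by amounts like those of Bckdhb (-1.85 ± 0.21 and -1.76 ± 0.21). The regulators had smaller differences, and their calls depended on the pairing of libraries. The phosphatase Ppm1k was called lower in both genotypes (-0.70 ± 0.26, adjusted p = 0.0402 and 0.0361) and was not with the replicate block (adjusted p = 0.0581 and 0.0538). Its call in Acot12+/+ kidneys was also lost without any 1 of the 6 Acot12+/+ libraries, Acot12-/- UUO replicate 1 or Acot12-/- UUO replicate 3. In Acot12-/- kidneys it was lost without any 1 of the 3 UUO libraries and without CL replicate 2, where the difference was -0.33 (adjusted p = 0.0674). The kinase Bckdk was called in neither (-0.54 ± 0.25 and -0.53 ± 0.25, adjusted p = 0.0964 and 0.0917) and was called in both with the block (adjusted p = 0.0297 and 0.0277) and without Acot12-/- CL replicate 2 (-0.54, adjusted p = 0.00495, and -0.88, adjusted p = 0.000467). Of the transaminases, the mitochondrial Bcat2 was called lower in Acot12+/+ kidneys (-0.81 ± 0.29, adjusted p = 0.0339) and not in Acot12-/- kidneys (-0.63 ± 0.29, adjusted p = 0.0797, and 0.0105 with the block), and its call in Acot12+/+ kidneys was lost without any 1 of their 6 libraries (adjusted p = 0.0543 to 0.0986). In Acot12-/- kidneys it was called without CL replicate 2 (-1.02, adjusted p = 0.000892) and without UUO replicate 3 (-0.82, adjusted p = 0.0475), and its interaction with genotype was not called. The other transaminase, Bcat1, was called lower in Acot12-/- kidneys (-0.61 ± 0.22, adjusted p = 0.0307) and not in Acot12+/+ kidneys (-0.11 ± 0.22, adjusted p = 0.688). The interaction of Bcat1 with genotype was not called either (-0.50 ± 0.30, adjusted p = 0.669). Scaling every library to an equal total, which raised the median difference of all genes to 0.62 in Acot12+/+ and 0.45 in Acot12-/- kidneys, left 11 and 14 of the 25 called lower and 5 and 2 higher, and neither Ppm1k (-0.12 and -0.27) nor Bcat2 in Acot12+/+ kidneys (-0.10) was then called. On that scale Auh (-0.23), Hsd17b10 (-0.31) and Hadha (0.06) were not called in Acot12+/+ kidneys, nor Hadha (-0.38) in Acot12-/- kidneys, so that 5 and 6 of the 7 isoleucine and valine genes were called lower. The shares of all tested genes given above belong to the main fit and are no background for these counts with equal totals.

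Entry into the cell and biotin attachment went differently. Slc7a5, the light chain of a large neutral amino acid exchanger, rose in both genotypes, by 1.39 ± 0.20 (adjusted p = 0.000189) and 1.27 ± 0.20 (adjusted p = 0.000248), from levels of 0.191 to 0.915 FPKM in CL to 2.22 to 4.21 FPKM in UUO. Hlcs, which attaches biotin to the carboxylases, rose by 0.54 ± 0.12 (adjusted p = 0.00298) and 0.30 ± 0.12 (adjusted p = 0.0494, and 0.087 with the replicate block, where it was not called), the second of which was called in only 1 of the 12 leave-one-out fits (adjusted p = 0.0448 to 0.195). Slc6a19, the apical neutral amino acid transporter of the proximal tubule, fell by 2.63 and 3.58 on the log2 scale. Slc25a44 was called lower in Acot12-/- kidneys (-0.84 ± 0.17, adjusted p = 0.00117) and not in Acot12+/+ kidneys (-0.10 ± 0.17, adjusted p = 0.65). With equal totals it was called higher in Acot12+/+ kidneys (0.58, adjusted p = 0.0221) and not called in Acot12-/- kidneys (-0.33, adjusted p = 0.172). Slc7a8 was also called lower only in Acot12-/- kidneys (-0.12 ± 0.27 in Acot12+/+ and -1.51 ± 0.27 in Acot12-/-). Of these 25 genes, 3 transporters were called between genotypes in CL kidneys and higher in Acot12-/- mice: Slc7a8 (1.59 ± 0.27, adjusted p = 0.00913), Slc6a19 (1.58 ± 0.39, adjusted p = 0.0421) and Slc3a2 (1.28 ± 0.22, adjusted p = 0.0109). The share of all tested genes called between genotypes in CL was 4.48%. Slc7a8 was at 11.6, 16.8 and 21.7 FPKM in Acot12+/+ CL and at 70.6, 43.6 and 42.8 FPKM in Acot12-/- CL. With only the 2 CL groups in the fit these 3 were not called (adjusted p = 0.0758 to 0.0923). Slc6a19 also lost its call with a pseudocount of 0.1 (adjusted p = 0.0582), without the filter on low values (0.0757), and in 7 of the 12 leave-one-out fits (adjusted p up to 0.17), those without Acot12+/+ CL replicates 1 and 2, Acot12+/+ UUO replicates 1, 2 and 3, Acot12-/- CL replicate 1 and Acot12-/- UUO replicate 3. Slc3a2 lost its call without Acot12+/+ CL replicate 1 (adjusted p = 0.0514), and Slc7a8 kept it in all 12. Without Acot12-/- CL replicate 2 the 3 were called together with 5 more of the 25, 8 in all. Calls over all tested genes also rose in that fit, from 593 in the main fit to the highest count given in the closing paragraph. The added calls are therefore not read as particular to these genes. None of the 25 was called between genotypes in UUO kidneys. For the interaction none was called, but with the replicate block Slc3a2 (-1.48, adjusted p = 0.0311) and Slc7a8 (-1.38, adjusted p = 0.0475) were. The UUO values of Slc7a8 overlapped between genotypes, at 13.6, 14.0 and 17.1 FPKM in Acot12+/+ and 23.3, 12.7 and 17.3 FPKM in Acot12-/- mice.

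Neighbouring mitochondrial pathways gave similar counts. Of 17 tricarboxylic acid cycle genes, 16 were called lower in Acot12+/+ UUO and 17 in Acot12-/- UUO, with medians of -1.48 and -1.67. Of 18 genes of mitochondrial fatty acid beta-oxidation, 18 and 17 were called lower, with medians of -1.48 and -1.42. The shares of all tested genes called lower were 23.9% and 27.2%. Hadha and Echs1 are both in this list and among the other genes of the branched-chain pathway. The tested genes nearest to the mean profile of the 10 enzymes over the 12 libraries were Aldh5a1, Atp5a1, Fh1, Aifm1 and Fdx1, at root mean square distances of 0.107 to 0.116 on the centred log2 scale. The enzymes themselves lay at 0.139 (Bckdhb) to 0.507 (Bckdha) from that mean, and 11 genes outside the set were nearer to it than Bckdhb.

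Between CL and UUO kidneys, markers of the proximal tubule and other tubule segments fell along with the enzymes. Of 11 tested proximal tubule markers, 10 were called lower in Acot12+/+ UUO and 11 in Acot12-/- UUO, and their summed level in Acot12+/+ mice went from 4813 to 6496 FPKM over the CL libraries and from 918 to 2038 FPKM over the UUO libraries. The mutants had sums of 5902 to 9926 FPKM (CL) and 656 to 2400 FPKM (UUO). The twelfth marker, Kap, was listed at 0 in 3 CL libraries beside values up to 189588 FPKM and was left out of the fit. All 7 injured tubule markers were called higher in both genotypes, from summed levels of 1001 to 5005 FPKM in CL to 15401 to 18357 FPKM in UUO. Of 9 macrophage markers, 8 and 9 were called higher, from 55.2 to 184 FPKM in CL to 665 to 955 FPKM in UUO, and of 9 fibroblast markers 7 and 9, from 50.9 to 189 FPKM to 373 to 545 FPKM. Of 10 markers of other tubule segments 10 and 9 were called lower, and of 5 tested lymphocyte markers 4 were called higher in each genotype. Beside these marker counts, 23.9% and 27.2% of all tested genes were called lower and 23.6% and 26.6% higher. No proximal tubule, injured tubule, macrophage or fibroblast marker was at 0 in all libraries of a group. Among the UUO libraries, Acot12-/- replicate 2, with the lowest level of all 10 enzymes, also had the lowest mean level of proximal tubule markers (4.46 on the log2 scale, against 5.22 to 6.51 in the others). The CL libraries did not follow that order. Acot12+/+ CL replicate 1 had the lowest proximal tubule marker mean among them (7.38, the highest being 8.72). Its enzyme mean was 6.43, in a CL range of 6.21 to 6.54. In CL kidneys all 11 markers were nominally higher in Acot12-/- mice, with a median of 0.63 and none called. By contrast, 6 of 7 endothelial, 4 of 9 macrophage, 3 of 9 fibroblast and 3 of 5 tested lymphocyte markers were called lower there. Of all tested genes, 4.48% were called in that comparison. With only the CL groups in the fit, Acot12 was the only gene called (limma adjusted p = 0.0145), and none of these markers was. The part of tissue composition in the enzyme differences was not tested.

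**Figure D5:**
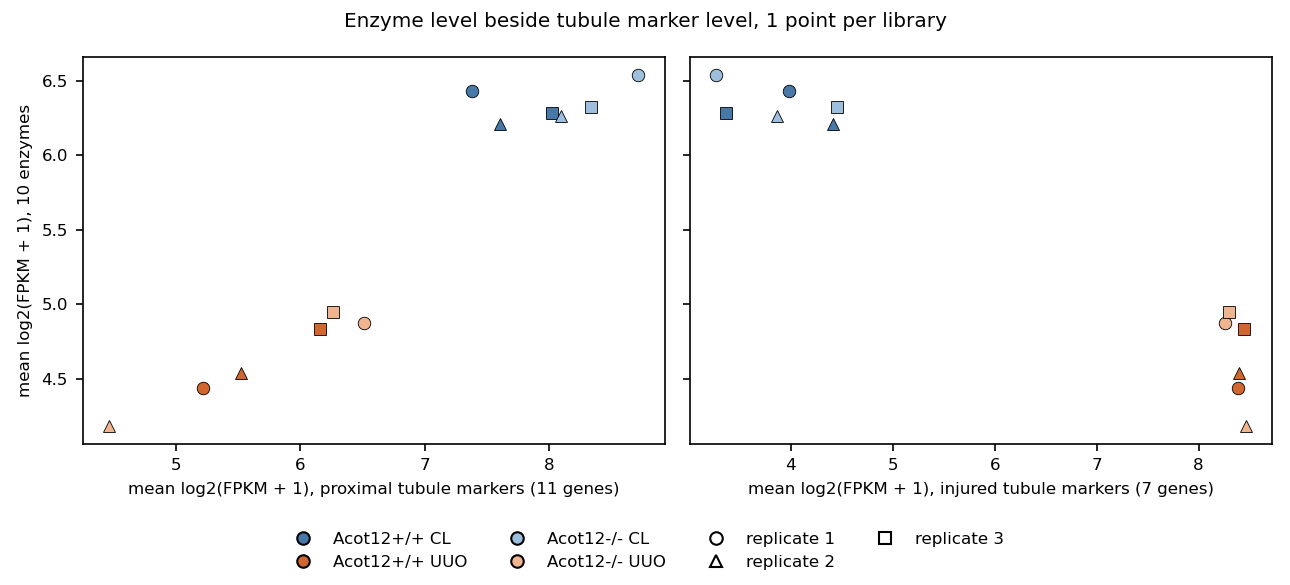
Mean log2(FPKM + 1) of the 10 enzymes in each library against that of 11 proximal tubule markers (left) and 7 injured tubule markers (right), with colours for the 4 groups and shapes for replicates. The UUO libraries lie at 4.18 to 4.95 for the enzymes and the CL libraries at 6.21 to 6.54, and Acot12-/- UUO replicate 2 is lowest on both axes of the left panel.

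Because the genes fell together, their promoters were read from RefSeq (build GRCm38.p6, 250 bases before to 50 after the start), where 9 of the 10 symbols matched and Dbt did not. Those of Mccc1 and Pcca, the further falling subunit of each carboxylase, are shown beside those of Bckdha and Pccb, the 2 genes with the smallest falls over both genotypes, so that the windows can be compared. They lie at chr3:36000629-36000928 (Mccc1, minus strand), chr14:122534078-122534377 (Pcca, plus strand), chr7:25658712-25659011 (Bckdha, minus strand) and chr9:101034835-101035134 (Pccb, minus strand). Capitals mark the letters GGGCGG and CCAAT on either strand.
Mccc1: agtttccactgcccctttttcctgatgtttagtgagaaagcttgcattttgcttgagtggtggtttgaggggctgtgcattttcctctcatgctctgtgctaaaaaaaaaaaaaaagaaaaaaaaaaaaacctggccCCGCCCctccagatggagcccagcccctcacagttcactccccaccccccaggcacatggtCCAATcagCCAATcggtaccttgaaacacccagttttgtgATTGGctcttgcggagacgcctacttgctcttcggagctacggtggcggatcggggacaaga
Pcca: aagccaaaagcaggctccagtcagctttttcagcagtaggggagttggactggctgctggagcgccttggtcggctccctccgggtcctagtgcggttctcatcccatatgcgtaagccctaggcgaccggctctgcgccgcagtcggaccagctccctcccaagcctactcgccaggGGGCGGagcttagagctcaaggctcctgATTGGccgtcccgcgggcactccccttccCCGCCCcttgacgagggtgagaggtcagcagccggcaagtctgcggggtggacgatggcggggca
Bckdha: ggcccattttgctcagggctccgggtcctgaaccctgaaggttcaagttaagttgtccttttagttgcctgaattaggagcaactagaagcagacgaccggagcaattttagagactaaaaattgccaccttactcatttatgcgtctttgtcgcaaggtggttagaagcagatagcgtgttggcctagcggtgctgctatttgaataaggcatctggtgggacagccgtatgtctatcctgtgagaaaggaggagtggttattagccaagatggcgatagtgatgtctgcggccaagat
Pccb: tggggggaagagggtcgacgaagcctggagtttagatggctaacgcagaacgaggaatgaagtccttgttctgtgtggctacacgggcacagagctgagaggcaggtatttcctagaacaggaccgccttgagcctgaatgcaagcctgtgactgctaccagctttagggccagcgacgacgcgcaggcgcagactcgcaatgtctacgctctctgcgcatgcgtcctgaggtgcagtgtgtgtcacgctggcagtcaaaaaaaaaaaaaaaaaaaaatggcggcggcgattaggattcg
GGGCGG was present in 5 of the 9 promoters (35.66% of all 32851 promoters in the table) and CCAAT in 5 of 9 (37.41%). Mccc1 held 1 and 3 of them, Pcca 2 and 1, and Bckdha and Pccb held neither. The other promoters held 3 and 2 (Bckdhb), 0 and 4 (Ivd), 4 and 0 (Acadsb), 0 and 3 (Mccc2) and 5 and 0 (Hibch). In the GENCODE annotation Bckdha begins at 25658981, inside its window, so that most of this window lies within the annotated gene. TCAAGGTCA, the letters of an element bound by estrogen-related receptors, was in none of the 9 (0.42% of all promoters), and a direct repeat of AGGTCA spaced by 1 base, bound by PPAR receptors, was in none (0.04%). TATAAA was also in none (13.62%), and CACGTG was in 1, that of Mccc2 (7.15%). Both strands were searched, and TCAAGGTCA contains AGGTCA. These matches describe letters in a window of 300 bases and say nothing of binding.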

How the data were processed

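Kidney cortex RNA of 12 libraries was sequenced by the authors with a directional NEBNext Ultra II kit on a NovaSeq instrument, with read trimming, mapping and normalization done by a company. The submitters' notes name the mm10 build, and the aligner is not given in the sources used here. Each deposited file lists FPKM by gene symbol, 23183 in all. This unit was derived from the values, whose low steps shrink with transcript length. These steps gave the approximate depth of each library.

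The fit used limma 3.58.1 in R 4.3.3 on log2(FPKM + 1), with all 4 groups in 1 model and a variance trend. An additive model gave the UUO difference over both genotypes. Genes needed at least 1 FPKM in at least 3 libraries, and those listed at 0 beside at least 10 FPKM in the same group were left out, leaving 13243. A call was a Benjamini-Hochberg adjusted p under 0.05. Ratios were tested by exact permutation. Positions, GC content and overlapping genes came from the GENCODE vM21 annotation (GRCm38). The scripts were tested on simulated data. FPKM carry no counts, so counting error enters only through the replicates.

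Groups came from the sample labels. Replicate numbers were taken to pair CL and UUO kidneys, which the labels do not state. Over all tested genes the deviations of same-numbered kidneys correlated at 0.13, 0.36 and 0.33 in Acot12+/+ and 0.32, 0.19 and 0.32 in Acot12-/- mice. Kidneys of different numbers within a genotype correlated at -0.36 to 0.14, a range that overlaps these values in Acot12+/+ mice. The pairing was thus inferred from these same data, and calls with the replicate block rest on it. The 10 genes, the gene lists and the tests were chosen with earlier results of these data known. Text named the 10 genes, pathway genes by role, Acot12 and the 5 nearest profiles. Alternatives covered the pseudocount, filters, scaling, the variance trend, the groups fitted, the replicate block, a GC correction added after seeing the data, and leaving out each library.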

Additional observations from a re-analysis of the deposited data

Results flagged for a closer look

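Slc3a2, the heavy chain that partners the amino acid exchangers Slc7a5 and Slc7a8, differed between UUO and CL in opposite directions in the genotypes. In Acot12+/+ mice it was at 29.7, 37.7 and 41.0 FPKM in CL and at 44.8, 54.3 and 59.7 FPKM in UUO, all UUO libraries above all CL libraries (0.54 ± 0.22 on the log2 scale, limma adjusted p = 0.0649, and 0.00971 with the replicate block). In Acot12-/- mice it was at 112, 65.5 and 94.8 FPKM in CL and at 49.5, 36.2 and 53.7 FPKM in UUO, all below (-0.94 ± 0.22, adjusted p = 0.00385). With equal total FPKM the Acot12+/+ difference was 1.26 and called (adjusted p = 0.000172), and the Acot12-/- difference was -0.40 and not called (adjusted p = 0.124). The interaction of genotype and UUO was -1.48 ± 0.32 (adjusted p = 0.09), which was not called, and it was called with the replicate block (adjusted p = 0.0311). Leaving out each of the 12 libraries in turn gave -1.69 to -1.31, with adjusted p from 0.013 to 0.257, and only the fit without Acot12-/- CL replicate 2 was called.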

How the results depend on the processing

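The falls of the 10 genes in UUO kept their direction under every alternative run. The number called lower in Acot12+/+ kidneys was 10 except without a filter on low values (9) and with equal total FPKM (8, Bckdha at -0.45 and Pccb at -0.44 not called), and in Acot12-/- kidneys it was 9 except 10 with median-ratio size factors, the replicate block, the GC correction, or both of these last. Over both genotypes it was 10 except 9 with equal totals (Bckdha -0.48, adjusted p = 0.0997). Equal totals moved the median of all genes by 0.62, 0.45 and 0.54 in these comparisons, and the median of the 10 genes relative to that was -1.60, -1.61 and -1.61. Leaving out each library gave 9 to 10, 9 to 10 and 10 called. The replicate block changed no other call of the 10 genes. The genotype comparisons and the interaction gave 0 called throughout.

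The log2 ratio of Mccc1 to Mccc2 differed by -0.61 with the replicate block (adjusted p = 0.0938), -0.63 in Acot12+/+ alone (adjusted p = 0.2) and -0.58 in Acot12-/- alone (adjusted p = 0.3), and that of Pcca to Pccb by -0.73 (0.0938), -0.69 (0.2) and -0.77 (0.3). These exact tests of 3 against 3 libraries cannot go below p = 0.10. Leaving out each library gave -0.64 to -0.59 and -0.83 to -0.63 for these ratios, 0.23 to 0.74 for Bckdha to Bckdhb, -0.03 to 0.29 for Dbt to Bckdhb, -0.67 to -0.10 for Ivd to Acadsb and -0.09 to 0.58 for Bckdk to Ppm1k.

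Signs of uncalled genotype differences turned. With equal totals the UUO differences were -0.02 for Bckdha, -0.04 for Bckdhb, -0.03 for Dbt, -0.11 for Ivd and -0.01 for Pccb, and the interaction was -0.07 for Bckdha, -0.16 for Ivd and -0.05 for Acadsb. With the GC correction, with or without the block, Mccc1 in UUO was at 0.00 and Ivd in CL at -0.01. Leaving out each library, the UUO differences ran from -0.03 to 0.44 for Bckdha, -0.02 to 0.38 for Bckdhb, -0.04 to 0.37 for Dbt, -0.16 to 0.43 for Ivd, -0.19 to 0.02 for Acadsb, -0.14 to 0.25 for Mccc1, -0.15 to 0.15 for Hibch, -0.21 to 0.16 for Pcca and -0.07 to 0.45 for Pccb. In CL they ran from -0.29 to 0.64 for Bckdha, -0.21 to 0.05 for Bckdhb, -0.49 to 0.21 for Dbt, -0.17 to 0.41 for Ivd, -0.50 to 0.12 for Acadsb and -0.21 to 0.19 for Hibch. The interaction ran from -0.49 to 0.43 for Bckdha, -0.08 to 0.63 for Dbt, -0.35 to 0.39 for Ivd, -0.19 to 0.42 for Acadsb, -0.28 to 0.11 for Mccc1, -0.35 to 0.07 for Mccc2, -0.23 to 0.16 for Hibch and -0.41 to 0.11 for Pccb.

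Over all genes, 593 were called between genotypes in CL, from 1 with only the compared groups fitted to 2918 without Acot12-/- CL replicate 2, and 14 for the interaction, from 0 to 899 (83 with the replicate block). In the fit with 2918 calls, 8 of the 25 other pathway genes were called. In UUO 2 were called, from 0 to 4. The causes were not tested. With 3 libraries per group and no counts, small genotype differences of the 10 genes were not detectable.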
